A study of Mus musculus and Homo sapiens with 41 samples.

Results

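Haematopoietic stem and progenitor cells (HSPCs) that lack Tet2 were compared with and without knockdown of Mbd6 by their lists of H2AK119ub peaks. The comparison took the 3 libraries labelled Tet2 KO with shMbd6 and the 3 labelled Tet2 KO with shNC, 6 of the 41 libraries of the series, and was chosen by these labels alone. All were bone marrow Lin-c-Kit+ (LK) cells of Tet2 knockout (KO) mice aged 6 to 8 weeks, given an shRNA by electroporation and kept for 7 days in culture with mSCF, mIL-3, mTPO and mGM-CSF. The mice were of both sexes on a C57BL/6 background. KO shNC cells carry the Tet2 deletion too, so by their labels the groups differ only in the shRNA. A control shRNA (shNC) was used, and Mbd6 was targeted with 1 shRNA construct. The 3 libraries of wild-type (WT) cells with shNC are given as a background, and no WT library with shMbd6 was analysed here. Neither the loss of Mbd6 nor the identity of the cells can be read from these files, because they hold no expression values and H2AK119ub at a marker gene is no measure of its expression. The labels do not say whether replicates came from separate animals, so p-values measure only the spread between these libraries.

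H2AK119ub is histone H2A with a single ubiquitin, added by the E3 ligases of Polycomb complex PRC1 and removed by the deubiquitylase BAP1, which works in the PR-DUB complex with ASXL proteins. Mbd6 and Mbd5 are methyl-CpG-binding-domain proteins that join PR-DUB. Tet2 oxidizes 5-methylcytosine and is often mutated in myeloid neoplasms. The mark was mapped by CUT&Tag, in which an antibody guides a transposase to chromatin, with an equal amount of Drosophila chromatin added to each sample as a spike-in. Each library is a list of broad peaks with no read counts, which leaves the depth unknown. A value of 0 means that no peak was called there, and does not tell weak signal from thin sequencing.

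Sequence that gained peaks with Mbd6 knockdown differed in kind from sequence with peaks in KO shNC cells alone. The promoters of Msh6 (a mismatch repair protein), U2af1 (a splicing factor mutated in myeloid neoplasms) and Asxl1 (a PR-DUB subunit) are shown because their windows had no peak in any KO shNC library and peaks in all 3 KO shMbd6 libraries. The promoter of Gata2, a stem cell transcription factor, is shown because its window had no peak in any of the 9 HSPC libraries although it too is rich in CG dinucleotides. Each runs over 300 bases, from 250 before to 50 after the RefSeq start, 5′ to 3′ on the strand of the gene (GRCm38.p6, the assembly of mm10), with CG dinucleotides in capitals.
Msh6, chr17:87974800-87975099, plus strand: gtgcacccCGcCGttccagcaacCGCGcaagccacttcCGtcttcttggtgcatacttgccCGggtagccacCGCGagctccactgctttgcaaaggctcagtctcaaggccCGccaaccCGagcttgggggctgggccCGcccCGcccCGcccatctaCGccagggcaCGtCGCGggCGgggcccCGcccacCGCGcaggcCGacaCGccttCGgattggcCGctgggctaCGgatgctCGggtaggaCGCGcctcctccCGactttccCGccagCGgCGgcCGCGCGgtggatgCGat
U2af1, chr17:31658715-31659014, minus strand: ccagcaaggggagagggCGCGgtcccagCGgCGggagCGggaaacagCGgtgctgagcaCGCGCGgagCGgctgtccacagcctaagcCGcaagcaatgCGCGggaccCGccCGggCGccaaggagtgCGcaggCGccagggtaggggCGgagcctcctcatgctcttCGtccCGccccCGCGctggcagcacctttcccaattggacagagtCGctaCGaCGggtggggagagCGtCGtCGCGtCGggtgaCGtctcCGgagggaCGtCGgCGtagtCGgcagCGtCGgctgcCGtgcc
Asxl1, chr2:153345580-153345879, plus strand: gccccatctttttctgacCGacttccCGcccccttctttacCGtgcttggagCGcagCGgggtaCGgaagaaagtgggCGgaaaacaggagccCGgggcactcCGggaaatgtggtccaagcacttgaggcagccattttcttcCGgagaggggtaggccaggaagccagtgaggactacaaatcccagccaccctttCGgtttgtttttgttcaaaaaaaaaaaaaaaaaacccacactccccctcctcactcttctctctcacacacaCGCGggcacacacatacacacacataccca
Gata2, chr6:88193641-88193940, plus strand: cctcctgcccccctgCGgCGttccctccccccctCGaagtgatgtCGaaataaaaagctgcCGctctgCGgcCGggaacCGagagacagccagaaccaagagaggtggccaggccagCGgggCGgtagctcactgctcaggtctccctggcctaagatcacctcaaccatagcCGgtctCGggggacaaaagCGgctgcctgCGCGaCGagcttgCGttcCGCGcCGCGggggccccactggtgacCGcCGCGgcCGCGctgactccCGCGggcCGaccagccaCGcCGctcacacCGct
These 300 bases held 37 CG dinucleotides at Msh6, 40 at U2af1, 13 at Asxl1 and 32 at Gata2. At Msh6 peaks covered all 300 bases in each KO shMbd6 library and 228, 278 and 300 bases in WT. At U2af1 the peaks covered 164, 264 and 300 bases in the 3 KO shMbd6 libraries and none in the KO shNC or WT libraries. At Asxl1 the peaks covered 150, 300 and 300 bases in KO shMbd6 and none in the other 6 libraries.

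The regions that lost peaks are shown by 200 bases from each of 2 of those with the largest loss, and a gained repeat stands beside them (GRCm38.p6, plus strand). At Dip2c, capitals mark a tract of pyrimidines alone. At Cdh18 and Nlk, capitals mark the first copy of a repeated unit.
Intron of Dip2c, chr13:9321307-9321506: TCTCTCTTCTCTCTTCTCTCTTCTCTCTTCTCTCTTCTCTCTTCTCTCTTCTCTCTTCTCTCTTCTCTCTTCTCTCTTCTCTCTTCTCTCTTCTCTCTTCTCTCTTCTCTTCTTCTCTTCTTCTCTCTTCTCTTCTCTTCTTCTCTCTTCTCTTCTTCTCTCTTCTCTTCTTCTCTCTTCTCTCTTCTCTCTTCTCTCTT
Intron of Cdh18, chr15:22799742-22799941: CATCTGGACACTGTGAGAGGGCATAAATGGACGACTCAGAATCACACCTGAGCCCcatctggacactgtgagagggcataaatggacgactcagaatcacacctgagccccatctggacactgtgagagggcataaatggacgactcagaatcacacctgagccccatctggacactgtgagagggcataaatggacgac
Intron of Nlk, chr11:78658293-78658492: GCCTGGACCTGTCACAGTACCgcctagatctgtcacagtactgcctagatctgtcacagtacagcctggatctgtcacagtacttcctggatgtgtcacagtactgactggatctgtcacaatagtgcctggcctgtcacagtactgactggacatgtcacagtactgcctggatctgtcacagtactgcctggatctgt
The stretch in Dip2c was covered whole by peaks in each KO shNC library and had no peak in any KO shMbd6 or WT library. Its tract was 341 bases long. The unit is 55 bases in Cdh18 and 21 bases in Nlk. Reads from such repeats can match several places, and by the study's methods the aligner kept 1 best match for each read.

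KO shMbd6 libraries held 8.83 times as many peaks outside tandem repeats as KO shNC libraries, and 1.21 times as many inside them. Depth is unknown, and its part in these counts was not tested. The KO shNC libraries held 1399, 1451 and 1398 peaks on the autosomes, X and Y, and the KO shMbd6 libraries 7650, 8286 and 8120. The WT libraries lay between them, at 3979, 4629 and 4046. A peak was counted as tandem repeat where at least 70% of its bases equalled the base at a fixed distance of 1 to 60 bases further on, a split chosen after the data were seen. By this count 613, 599 and 552 KO shNC peaks were tandem repeats, against 662, 745 and 727 in KO shMbd6 and 622, 699 and 707 in WT. The groups KO shNC and KO shMbd6 did not overlap, but their means of 588 ± 32.0 and 711 ± 43.7 (SD, n = 3) differed by a ratio of 1.21. The remaining peaks numbered 786, 852 and 846 in KO shNC and 6988, 7541 and 7393 in KO shMbd6, a ratio of means of 8.83. WT had 3357, 3930 and 3339 such peaks. Both differences gave an exact two-sided permutation p of 0.1, the smallest that 3 against 3 libraries allow. Among peaks with a −log10 q of at least 5, the tandem-repeat peaks numbered 316 ± 22.5 in KO shNC and 327 ± 24.2 in KO shMbd6, and these groups overlapped (exact permutation p = 0.5). Among the 1398 strongest peaks of each library the order turned. Tandem-repeat peaks there numbered 582 ± 30 in KO shNC and 229 ± 11.5 in KO shMbd6, with no overlap (exact permutation p = 0.1).

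**Figure D1:**
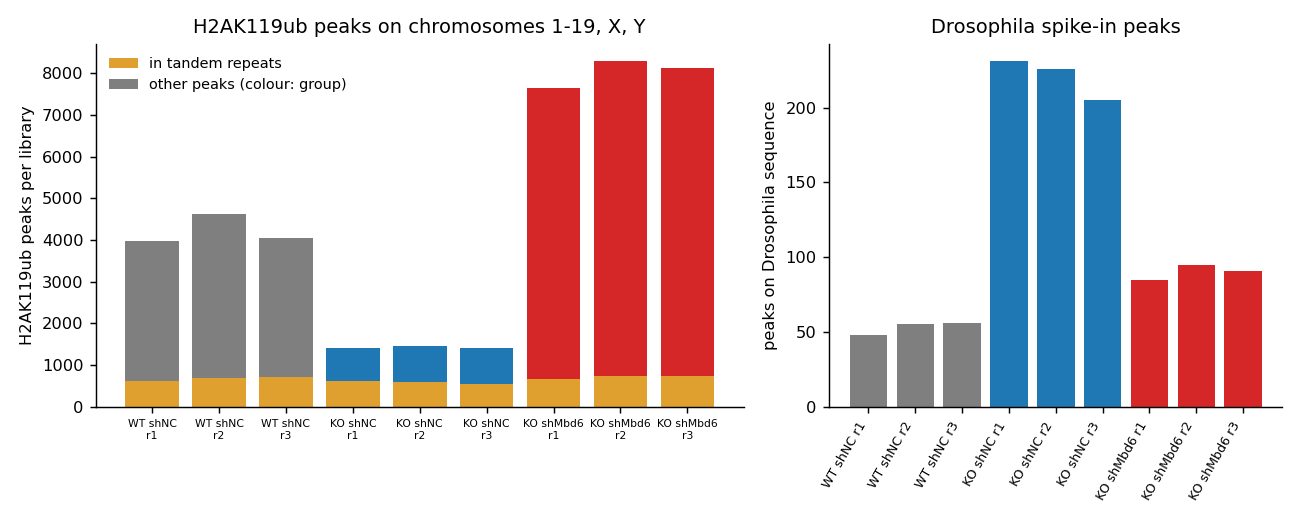
Number of H2AK119ub peaks in each of the 9 HSPC libraries (left, stacked bars, tandem-repeat peaks in yellow and the other peaks in the colour of the group) and number of peaks on Drosophila sequence (right). The yellow part is of similar height in all groups, from 552 to 745 peaks, and the rest is lowest in KO shNC and highest in KO shMbd6, while spike-in peaks are most numerous in KO shNC.

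The spike-in moved the other way. Peaks on Drosophila sequence numbered 231, 226 and 205 in KO shNC, 85, 95 and 91 in KO shMbd6 and 48, 55 and 56 in WT. The mean of KO shMbd6 was 0.409 times that of KO shNC, with no overlap (exact permutation p = 0.1, the smallest possible). The part of the spike-in share or of depth in the mouse peak counts was not tested. Peaks were of like width, with medians of 387, 394 and 398.5 bases in KO shNC and 406, 432 and 423 in KO shMbd6. The lists of KO shMbd6 also reached weaker peaks. Their median fold enrichment over local background was 4.17 ± 0.0524 (SD, n = 3) against 5.53 ± 0.0198 in KO shNC.

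Covered sequence shifted to promoters. Within 1 kb to each side of the TSS of a protein-coding gene lay 21.1, 24.3 and 24.7% of the covered bases in KO shNC libraries, against 49.4, 48.5 and 47.2% in KO shMbd6. Promoters so defined make up 1.56% of the genome. The WT share was 45.5 to 47.3%, close to that of KO shMbd6 although WT libraries held fewer peaks. The intergenic share was 34.3 to 37.1% in KO shNC and 18.7 to 19.4% in KO shMbd6, both below the 53.4% of the genome. Introns held 37.2 ± 1.15% and 25.2 ± 0.787% of covered bases, and exons outside promoters 3.75 ± 0.369% and 7.47 ± 0.0506%. In the genome introns make up 40.6% and such exons 4.44%. None of these 4 shares overlapped between the groups, and each gave the smallest exact permutation p of 0.1.

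Base composition moved with position. Repeat-masked bases were 47.0, 42.9 and 42.3% of the covered length in KO shNC, above the genome's 36.4%, and 12.2, 12.8 and 13.1% in KO shMbd6. CG dinucleotides numbered 2.65, 2.95 and 2.91 per 100 covered bases in KO shNC and 5.18, 5.08 and 4.86 in KO shMbd6, against 0.826 in the genome. Peaks farther than 100 kb from any protein-coding TSS were 21.3 ± 0.912% of the list in KO shNC and 7.63 ± 0.249% in KO shMbd6. These contrasts also held between lists of equal length. When the 1398 strongest peaks of each library were kept, the promoter share was 23.3 ± 1.96% in KO shNC and 57.6 ± 1.39% in KO shMbd6, and the repeat-masked share 42.3 to 47.0% and 19.2 to 21.1%. Without tandem-repeat peaks the promoter shares were closer, at 42.9 ± 2.18% and 54.4 ± 1.11%, and the CpG densities 4.84 ± 0.165 and 5.60 ± 0.171 per 100 bases. The groups did not overlap in either setting (exact permutation p = 0.1).

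**Figure D2:**
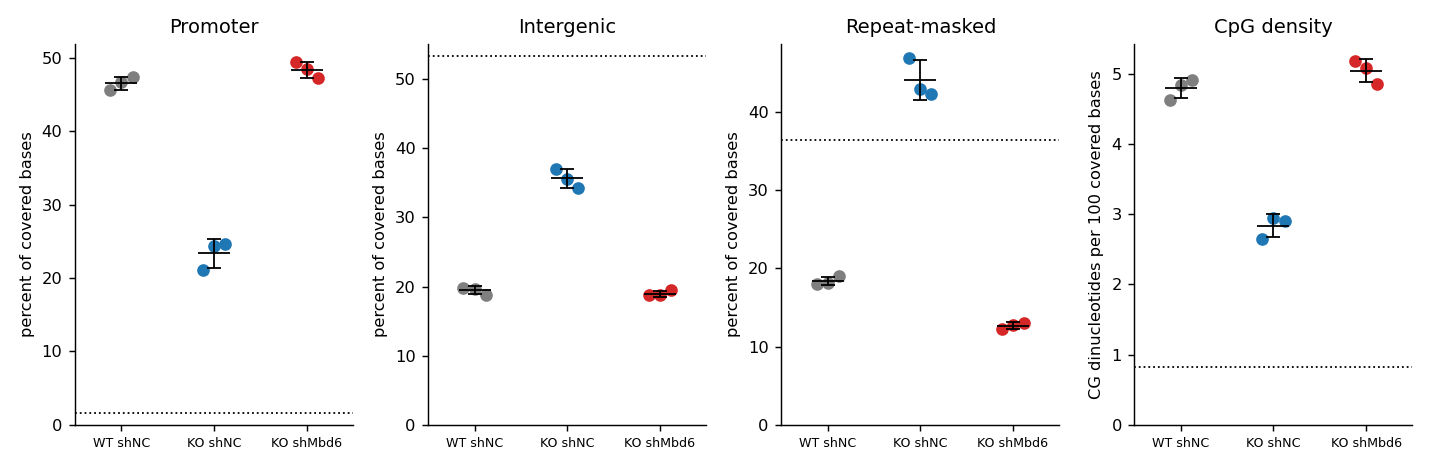
Share of covered bases at promoters, in intergenic sequence and in repeat-masked sequence, and CG dinucleotides per 100 covered bases, for each library (points) with group mean and SD (bars, n = 3). The dotted line is the value of the whole genome. KO shNC libraries stand apart from both other groups in all 4 panels, with promoter shares of 21.1 to 24.7% against 47.2 to 49.4% in KO shMbd6.

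Around the TSS the peaks formed a narrow summit. In the 100 bases just before the TSS, 1.19, 1.34 and 1.38% of protein-coding TSSs were covered in the 3 KO shNC libraries and 12.5, 13.8 and 12.9% in KO shMbd6. In WT the values were 6.36, 7.79 and 6.95%. The TSS of most genes therefore lay outside the listed peaks in every library.

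**Figure D3:**
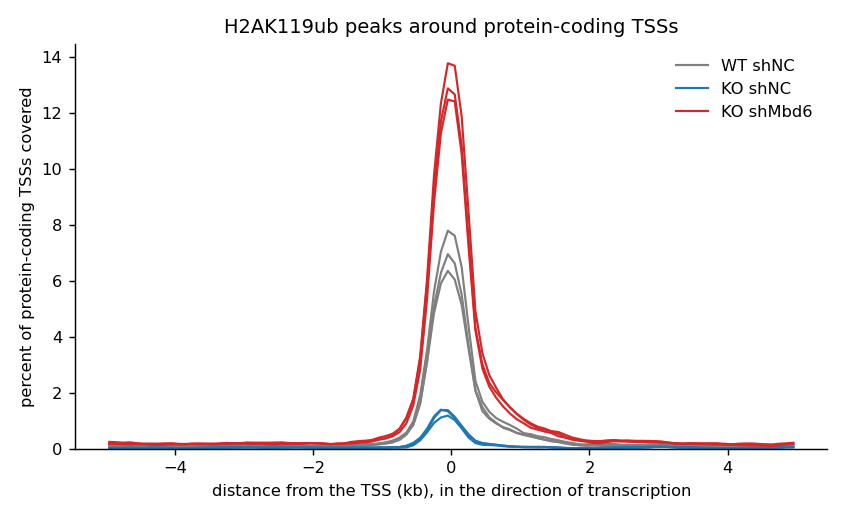
Percent of protein-coding TSSs covered by a peak against the distance from the TSS in kb, in steps of 100 bases, 1 line for each library. All 3 groups have their summit within 200 bases before the TSS, at 12.5 to 13.8% in KO shMbd6.

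Gene by gene, 3055 of 4242 windows tested rose with Mbd6 knockdown, 72% of them, and 4 fell, 0.0943%. A window is the 10 kb around an annotated TSS, its value the kb covered by peaks, and those covered in at least 3 of the 9 HSPC libraries were tested with limma, with a call at a Benjamini-Hochberg adjusted p under 0.05. The median difference over all windows tested was 0.404 kb. Of the windows called higher, 2347 had no peak in any KO shNC library. Libraries that are all at 0 show no spread of their own, and the adjusted p of such a window rests on the spread in the other groups. The 416 windows that had peaks in the KO shMbd6 libraries alone passed the filter only through that group and were all called. Their call was fixed by the filter, so values without a p are given for those named. Of the 3826 others, 2639 were called higher. Some of these others also needed 1 KO group to pass the filter. They had no peak in the other KO group and peaks in fewer than 3 WT libraries. Fam110c, Kit, Nfe2 and Tekt4 are examples, and their adjusted p leans on the filter. Windows of neighbouring genes share peaks, and 1051 of the windows called higher overlapped another such window. Where each library was scaled to the same covered length, 1183 windows were higher and 204 lower, so that 85.3% of calls were higher instead of 99.9%. Scaling multiplies each library by 1 factor, so the 2347 windows stayed at 0 in KO shNC and could not turn lower. For these windows it is no check of direction. With the 1398 strongest peaks of each library, 304 of 1137 windows were higher and 21 lower.

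CpG-rich promoters had the largest covered share in KO shNC, KO shMbd6 and WT alike. The share rose with knockdown in every promoter class, and whether it rose more in one class was not tested. Genes were counted whose window had a peak in at least 2 of 3 libraries. With CpG-rich promoters they numbered 335 of 8413 in KO shNC (3.98%) and 3403 in KO shMbd6 (40.4%). Among genes with CpG-poor promoters the counts were 49 of 8775 (0.558%) and 494 (5.63%). For promoters between these classes they were 70 of 4723 (1.48%) and 1146 (24.3%). WT lay between, with 21.9% of the CpG-rich and 2.67% of the CpG-poor group. Among windows tested, 2174 of 2901 CpG-rich, 642 of 934 intermediate and 239 of 407 CpG-poor ones were called higher. Of the 454 windows covered in at least 2 KO shNC libraries, 444 were also covered in at least 2 KO shMbd6 libraries.

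Short motifs of promoter factors were counted in the promoter sequences. The letters CCAAT, bound by the factor NFY, stood on either strand of 51.1% of the 2476 promoter sequences of genes called higher that RefSeq's table holds, against 360 of 900 tested and not called and 38.8% of all 16522. CpG-rich promoters as a whole held them in 36.7%, and the 361 promoters covered in at least 2 KO shNC libraries in 55.7%. The letters GGGCGG, a site of SP and KLF factors, stood in 74.2% of those called higher and 76.5% of CpG-rich promoters. TGCGCA, part of the site of NRF1, stood in 18.6% of those called higher, 16.6% of CpG-rich and 10.3% of all promoters. CCGGAA, the core of ETS factors, stood in 28.4% of those called higher and 29.1% of CpG-rich promoters, and TATAAA in 4.97% and 4.89%. These shares describe letters in 300-base windows and not bound sites.

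The windows with the largest rises follow, and whether their genes share a function was not tested. Tsc22d2, a leucine-zipper family gene, had no peak in the KO shNC libraries and 1.12, 1.07 and 1.23 kb in KO shMbd6 (difference 1.14 ± 0.0618 kb, SE, adjusted p = 9.46e-05). In WT it had 0.289, 0.355 and 0.432 kb, less than in any KO shMbd6 library. Fam110c rose from 0 in all KO shNC libraries to 1.07, 1.25 and 1.04 kb (adjusted p = 0.000219), and Myh10, a non-muscle myosin heavy chain, from 0 to 0.991, 1.41 and 0.946 kb (adjusted p = 0.00117). For Myh10 the WT values of 0.703, 1.38 and 1.26 kb overlapped those of KO shMbd6. Abhd11, Ankrd16, Ndnf, Rap2b, Ifnz, Trim9 and Fzd7 completed the 10 largest, with differences of 1.02 to 1.26 kb. Ifnz, an interferon gene, turned to −0.773 kb after scaling to equal covered length (adjusted p = 0.362) and was not a rise there.

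Of the windows that fell, 3 belonged to named genes. None of these 3 passed the filter once tandem-repeat peaks were left out, so their falls were not tested without such peaks. Reads from tandem repeats can match several places. Tekt4, a tektin of sperm flagella, had 0.387, 0.306 and 0.339 kb in KO shNC and no peak in KO shMbd6 (adjusted p = 0.00952). Taar8b, a trace amine receptor gene, had 0.463, 0.294 and 0.294 kb and none (adjusted p = 0.00875). The window of Mcc, a gene first found mutated in colorectal cancer, kept its peaks, at 0.586, 0.581 and 0.580 kb in KO shNC and 0.435, 0.428 and 0.468 kb in KO shMbd6 (adjusted p = 0.0260). It missed the threshold when any of the 6 libraries was left out. Without KO shNC replicate 3, 2 windows were called lower. The other window was that of the predicted gene Gm17655, named after its values were seen.

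The writers and erasers of the mark were covered at about the share of all genes or somewhat above it. Peaks in at least 2 KO shMbd6 libraries were found at 3 of 13 genes of PR-DUB and its partners (23.1%), 6 of 21 PRC1 genes (28.6%) and 4 of 12 PRC2 genes (33.3%), beside 23.02% of all 21911 windows. Here and for the lists that follow, counts of genes that rose stand beside the 72% of all windows tested that rose, and no list was tested against it. Of the PR-DUB genes, 3 windows were tested and 2 rose, 1 of which had passed the filter through KO shMbd6 alone, with a median difference of 0.374 kb beside 0.404 kb over all windows tested. Mbd6 itself, the target of the shRNA, had no peak in KO shNC and 0.450, 0.410 and 0.314 kb in KO shMbd6 (difference 0.391 ± 0.0631 kb, adjusted p = 0.00110). Its WT values of 0.425, 0.324 and 0.493 kb overlapped those of KO shMbd6. Asxl1 had 0.258, 0.476 and 0.389 kb in KO shMbd6 and no peak in KO shNC or WT. Bap1 and Tet2 had no peak within 5 kb of their TSS in any of the 9 libraries. Mbd5 had 0.333 kb in 1 KO shMbd6 library and none elsewhere.

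PRC1 writes H2AK119ub and PRC2 methylates histone H3. Of 21 PRC1 subunit genes 4 were tested, with a median difference of 0.267 kb, and 1 rose, Bmi1, with 0, 1.06 and 0.935 kb in KO shMbd6 and none in KO shNC (adjusted p = 0.0489). Bmi1 missed the threshold when any KO shNC library was left out. Of 12 PRC2 genes 3 were tested and all 3 rose, with a median of 0.381 kb, beside the 72% of all windows tested that rose. After scaling to equal covered length 1 PRC2 gene was higher and none lower, though genes at 0 in every KO shNC library could not turn lower. Rbbp4, a histone-binding subunit, had 0.401, 0 and 0 kb in KO shNC and 0.722, 0.737 and 0.729 kb in KO shMbd6 (adjusted p = 0.00154), but scaling to equal covered length left it at −0.0218 kb (adjusted p = 0.963). Phf1, a Tudor-domain partner of PRC2, had 0.312, 0.310 and 0.522 kb in KO shMbd6 and none in KO shNC (adjusted p = 0.00849).

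Of the 20 genes of TET enzymes, DNA methyltransferases and RNA 5-methylcytosine factors with a window, 6 were tested. These 6 had a median difference of 0.354 kb, and 4 of them rose, beside the 72% of all windows tested. Ybx1, a protein that binds 5-methylcytosine in RNA, had 0.387, 0.284 and 0.408 kb in KO shMbd6 and none in KO shNC (adjusted p = 0.000945). Dnmt3a, a DNA methyltransferase often mutated in leukaemia, had 0.264, 0.712 and 0.398 kb (adjusted p = 0.0142), and Nsun6, an RNA methyltransferase, 0.425, 0.780 and 0.529 kb (adjusted p = 0.00413), both from 0 in KO shNC. Nsun2, the methyltransferase of many RNAs, had 0.288 and 0.298 kb in 2 KO shMbd6 libraries, was covered in no other library and was not tested.

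Genes of cell division were covered more often than most. Peaks in at least 2 KO shMbd6 libraries were found at 11 of 19 G1 and S phase genes (57.9%), 12 of 22 DNA replication genes (54.5%), 9 of 18 DNA repair genes (50.0%) and 8 of 18 mitosis genes (44.4%), beside the 23.02% of all windows. In KO shNC each of these lists had at most 1 covered gene, beside 2.07% of all windows. All 10 replication genes tested rose, with a median difference of 0.449 kb, and 2 of them had passed the filter through KO shMbd6 alone. The repair genes that rose were 6 of 8, the G1 and S phase genes 5 of 8, with 2 tested through KO shMbd6 alone, and the mitosis genes 4 of 9, shares near or below the 72% of all windows. After scaling to equal covered length 5 replication genes were higher and 1 lower.

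Mcm4, a subunit of the replicative helicase, had 0.802, 0.955 and 0.636 kb in KO shMbd6 and no peak in KO shNC (difference 0.798 ± 0.0968 kb, adjusted p = 0.000385). Cdt1, which licenses replication origins, had 0.438, 0.464 and 0.698 kb and Cdc6, which loads the helicase with it, 0.280, 0.505 and 0.469 kb. For Cdt1 and Cdc6 the KO shNC and WT libraries were all at 0. Ccnd1, the gene of cyclin D1, likewise had peaks in KO shMbd6 alone, of 0.385, 0.402 and 0.273 kb. Birc5, which encodes survivin, had 0.398, 0.306 and 0.531 kb in KO shMbd6, 0 in KO shNC and 0.325, 0.456 and 0.466 kb in WT (adjusted p = 0.00152). Among repair genes, Fanca rose from 0 to 0.505, 0.541 and 0.499 kb (adjusted p = 0.000242) and Msh6 from 0 to 0.526, 0.707 and 0.537 kb (adjusted p = 0.000329). Atm, the kinase that signals double-strand breaks, kept peaks of 0.313, 0.412 and 0 kb in KO shNC and had 0.758, 0.724 and 0.880 kb in KO shMbd6 (adjusted p = 0.00251), but −0.323 kb after scaling (adjusted p = 0.384).

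Lists of genes that all cells use also stood above the 23.02% of all windows in KO shMbd6, a difference that was not tested. Promoter class was not matched here either, and CpG-rich windows as a whole stood at 40.4%. Covered were 9 of 16 spliceosome genes (56.3%), 6 of 14 proteasome genes (42.9%), 5 of 12 translation factors (41.7%), 7 of 18 mitochondrial and glycolytic genes (38.9%) and 7 of 20 cytosolic ribosomal protein genes (35.0%), and in KO shNC none in any of these lists. Of those tested, 7 of 8, 3 of 5, 5 of 5, 6 of 6 and 5 of 6 rose, of which 2, 2, 1, 1 and 2 had passed the filter through KO shMbd6 alone. After scaling none of these 5 lists had a gene called lower, but genes at 0 in every KO shNC library stay at 0 there and could not be. Aldoa, the glycolytic aldolase, had 0.692, 0.743 and 0.758 kb in KO shMbd6 and no peak in KO shNC or WT. Pabpc1, the poly(A)-binding protein, had 0.497, 0.639 and 0.613 kb, again in KO shMbd6 alone. U2af1 likewise had 0.330, 0.353 and 0.513 kb in KO shMbd6 alone, and Srsf2, also a splicing factor mutated in myeloid neoplasms, 0.593, 0.834 and 1.19 kb against 0 in KO shNC (adjusted p = 0.00107). Cycs, the gene of cytochrome c, did not exceed WT, at 0.563, 0.657 and 0.666 kb in KO shMbd6 and 0.596, 0.599 and 0.706 kb in WT, with 0 in KO shNC (adjusted p = 0.000222).

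Genes of the blood lineages were covered to differing extents, set beside the 23.02% of all windows with no test of the difference. HSPC transcription factors had peaks at 2 of 20 genes in KO shMbd6, lymphoid genes at 3 of 19 (15.8%), granulocyte and monocyte genes at 4 of 22 (18.2%), and erythroid and megakaryocyte genes at 7 of 16 (43.8%). HSPC surface and niche receptors had peaks at 4 of 17 genes (23.5%), and the stromal and endothelial markers, which stand for cells other than HSPCs, at 2 of 12. Kit, the receptor by which the cells were sorted, had 0.298, 0.361 and 0.493 kb in KO shMbd6 and none in KO shNC (adjusted p = 0.00664). Csf2ra, a GM-CSF receptor subunit, had 0.433, 0.462 and 0.538 kb in KO shMbd6 alone. Itga2b (CD41), a gene of the megakaryocyte lineage, had 0.372, 0.392 and 0.313 kb, again in KO shMbd6 alone. Nfe2, of the same lineage, rose from 0 in KO shNC to 0.388, 0.583 and 0.406 kb (adjusted p = 0.00302). Cd34, Gata2, Runx1, Meis1, Spi1 and Itgam had no peak within 5 kb of their annotated start in any of the 9 libraries, and other starts of a gene were not searched. In all, 13 of 20 genes chosen for their known roles in these cells or in the pathway, among them Myc, Hoxa9, Trim28, Actb and Nfkbia, were at 0 in all 9. Most windows were at 0 too, as only 7789 of all 21911 had a peak in at least 1 of the 9. No difference from that share was tested.

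Genes known as Polycomb targets in stem cells had lower shares than all windows in KO shMbd6, a difference that was not tested. Of 39 HOX genes 3 had peaks in at least 2 KO shMbd6 libraries (7.69%), and of 50 developmental transcription factors 7 (14.0%), below the 23.02% of all windows. In WT the counts were 1 (2.56%) and 6, the latter at 12% close to the 11.9% of all windows, and in KO shNC none. Both HOX genes tested rose, among them Hoxb1, which went to 0.515, 0.622 and 0.659 kb from 0 (adjusted p = 0.00167). Neurog2, Gsc and Irx5, factors of neural and mesodermal patterning, rose by 0.574, 0.655 and 0.429 kb (adjusted p = 0.00109, 0.00321 and 0.00807), the last of which stood at −0.116 kb after scaling (adjusted p = 0.799). Imprinted genes had 1 covered gene of 16, Igf2, with 0.305, 0.305 and 0.364 kb in KO shMbd6 alone.

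Signalling genes included several that had peaks in KO shNC. Relb and Ripk2, of NF-kB signalling, had peaks in all 6 libraries. Ripk2 rose from 0.324, 0.421 and 0.306 kb to 0.728, 0.714 and 0.587 kb (adjusted p = 0.00818) and Relb from 0.372, 0.572 and 0.530 kb to 0.726, 0.669 and 0.652 kb (adjusted p = 0.0455). Both were lower after scaling, by −0.735 kb (adjusted p = 0.00230) and −1.18 kb (adjusted p = 0.00141). Relb also missed the threshold without KO shNC replicate 1 or 3 or any KO shMbd6 library. Socs1 and Socs2, inhibitors of JAK-STAT signalling, rose by 0.483 and 0.452 kb (adjusted p = 0.00838 and 0.00736). Socs3 had 0.316, 0.724 and 0 kb in KO shMbd6 and was not called (adjusted p = 0.0867), though it was called without KO shMbd6 replicate 3. In the WNT pathway 7 of 8 genes tested rose, beside the 72% of all windows tested, and 3 were higher after scaling. Among those that rose, Fzd1, a receptor, had 0.727, 0.674 and 0.568 kb in KO shMbd6 and 0 in KO shNC (adjusted p = 0.000475). In WT the values of Fzd1 were 0.999, 1.01 and 0.720 kb. Axin1, a scaffold of the beta-catenin destruction complex, had 0.355, 0.386 and 0.363 kb against 0 (adjusted p = 0.000432).

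Genes that silence retroelements stood high in the list. Peaks were found at 10 of 18 in KO shMbd6 and 1 of 18 in KO shNC, and all 9 tested rose, 1 of which had passed the filter through KO shMbd6 alone. Cbx5, which encodes HP1 alpha, had 0.639, 1.14 and 0.772 kb and no peak in KO shNC (adjusted p = 0.00135), and Hdac1 0.389, 0.339 and 0.348 kb (adjusted p = 0.00538). After scaling 1 of these genes was higher and none lower, though those at 0 in every KO shNC library could not turn lower. Of myeloid leukaemia drivers 6 of 7 tested rose, of histone genes 5 of 6, of apoptosis genes 4 of 6 and of chromatin remodellers 4 of 6, beside the 72% of all windows tested. JAK-STAT genes rose in 3 of 8, immediate early genes in 4 of 5, and NF-kB and NOD-like receptor genes in 3 of 3. Of 3 germline genes tested 2 were higher and 1, Tekt4, lower. Over the lists with at least 5 windows tested, the median difference ran from 0.308 kb in JAK-STAT genes to 0.610 kb in WNT genes, around the 0.404 kb of all windows.

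**Figure D4:**
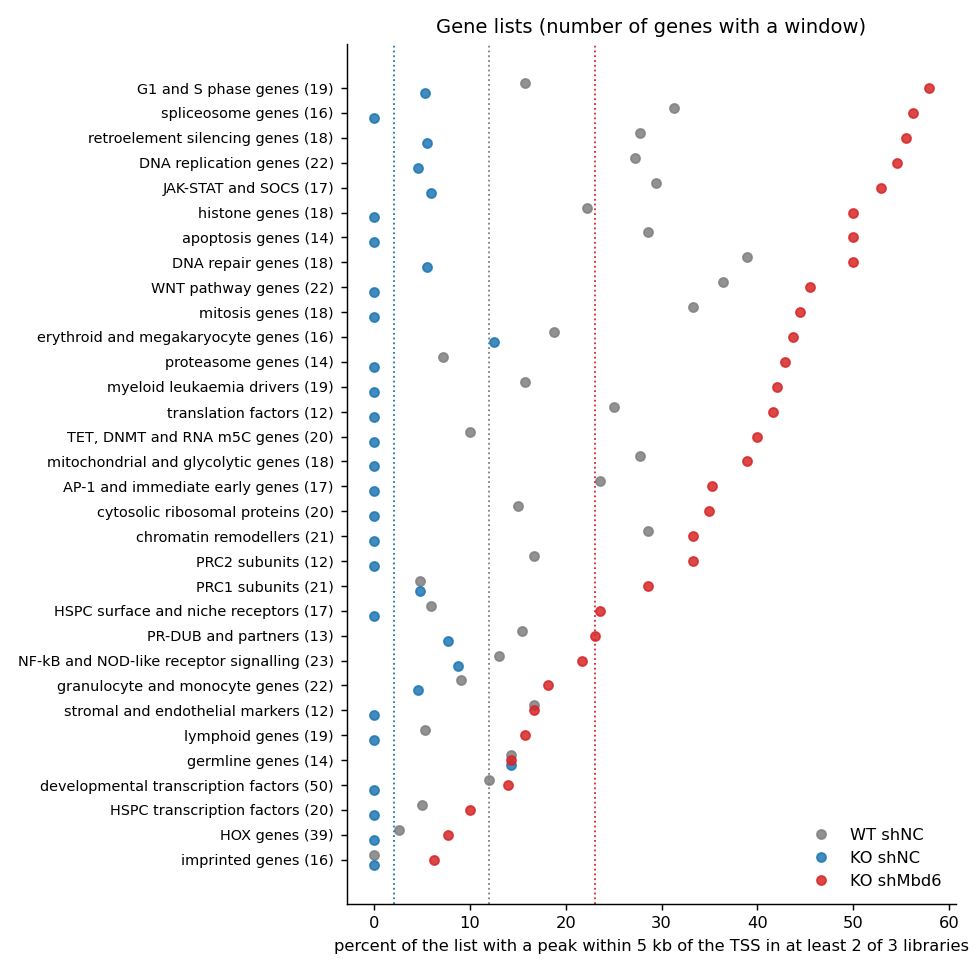
Percent of the genes of each list with a peak within 5 kb of the TSS in at least 2 of 3 libraries, for KO shMbd6, KO shNC and WT shNC, with the number of genes in parentheses. Dotted lines are the values over all protein-coding genes, 23.02, 2.07 and 11.9%. G1 and S phase, spliceosome, retroelement silencing and DNA replication genes stand at the top, and HOX genes, HSPC transcription factors and imprinted genes at the bottom.

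Peaks were also compared over the 14140 regions made by merging the peaks of the 9 HSPC libraries. In at least 2 of 3 libraries, 1137 regions had a peak in KO shNC and 7134 in KO shMbd6. They shared 914, which is 80.4% of the first set and 12.8% of the second. Of the 6220 regions of KO shMbd6 alone, 2423 (39.0%) also had peaks in at least 2 WT libraries. These regions were promoters in 55.6% and had a median of 5.94 CG dinucleotides per 100 bases and a median distance of 583 bases from a TSS. The 223 regions of KO shNC alone held no promoter. They were intergenic in 61.4%, tandem repeat in 52.0% and repeat-masked over more than 50% of their length in 79.8%, and 37 of them also had peaks in WT.

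Of the 6011 regions tested, 3574 rose (59.5%) and 82 fell (1.36%). Of those that rose 2842 had no peak in any KO shNC library, and 625 had passed the filter through KO shMbd6 alone. Of those that fell 62 had no peak in any KO shMbd6 library, and 53 had passed through KO shNC alone. Every region that passed through 1 of these groups alone was called, so its call was fixed by the filter. Regions with peaks in 1 KO group and in fewer than 3 WT libraries also needed that group to pass. They are not in these counts. None of the 82 was a promoter, and 61 were intergenic. Their median CpG density was 0.196 per 100 bases, against 6.61 in the regions that rose. Among tandem repeats 122 of 729 rose and 44 fell, and among the others 3452 of 5282 rose and 38 fell. Leaving out KO shNC replicate 1, 2 or 3 reduced the regions that fell to 25, 35 and 24. After scaling to equal covered length 1453 regions were higher and 640 lower, so that 69.4% of calls were higher instead of 97.8%. The 2842 regions with no peak in KO shNC stayed at 0 there and could not turn lower.

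The regions that fell shared a sequence feature that was noticed after their values were seen and was therefore not tested. A run of at least 40 purines, or of at least 40 pyrimidines, stood in 48 of the 82 (58.5%), in 27 of the 3574 that rose (0.755%) and in 118 of all 6011 (1.96%). Where present among the 82 its median length was 228 bases. Among the regions of KO shNC alone 73 of 223 held such a tract (32.7%), against 2.63% of the shared regions and 0.997% of those of KO shMbd6 alone. By library, the tracts were in 111, 90 and 90 peaks of KO shNC (7.93, 6.20 and 6.44%), 52, 76 and 67 of KO shMbd6 (0.680, 0.917 and 0.825%) and 27, 34 and 31 of WT (0.679, 0.735 and 0.766%). Tiles of 400 bases over the genome held one in 3.33%. KO shNC was thus above, and both other groups below, the share in the genome. The number of peaks, the repeat-masked share and the Drosophila peaks also set the same 3 libraries apart from both other groups. The part of each of these was not tested.

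The 6 regions with the largest fall were all outside promoters. The region in an intron of Cdh18, a cadherin gene (chr15:22799742-22800849) had 0.896, 1.02 and 0.832 kb in KO shNC and 0, 0 and 0.370 kb in KO shMbd6 (adjusted p = 0.0167), and its 55-base unit filled it whole. Its WT values of 0, 0.968 and 0.567 kb overlapped those of both KO groups. The pyrimidine stretch in an intron of Dip2c, which runs into an exon of a predicted transcript (chr13:9321117-9321593), was covered over 0.468, 0.477 and 0.474 kb in KO shNC and had no peak in KO shMbd6 or WT. An intron of Glis3 and an intergenic stretch near Cntnap4 had differences of −0.476 and −0.469 kb.

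The 6 regions with the largest rise were not promoters either. The repeat in an intron of Ttc28 (chr5:110962129-110964837, unit of 27 bases) rose from 0, 0.343 and 0.591 kb to 1.55, 2.16 and 1.87 kb (adjusted p = 0.000729). After scaling to equal covered length the difference was 0.0691 kb (adjusted p = 0.903). The repeat in an intron of Nlk, the gene of a WNT pathway kinase (chr11:78658293-78659730) rose from 0 in all KO shNC libraries to 1.44, 1.33 and 1.33 kb, with 1.17, 0.979 and 1.15 kb in WT (adjusted p = 0.000110), and was called after scaling too. A stretch near Nrbp2 (chr15:76102769-76104911), inside a coding exon of the plakin gene Eppk1 and with 4.15 CG dinucleotides per 100 bases, had 0.420, 0 and 0.650 kb in KO shNC and 1.60, 1.85 and 1.85 kb in KO shMbd6 (adjusted p = 0.00134). The others lay near Cox6c, Sfi1 and Tmem121.

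**Figure D5:**
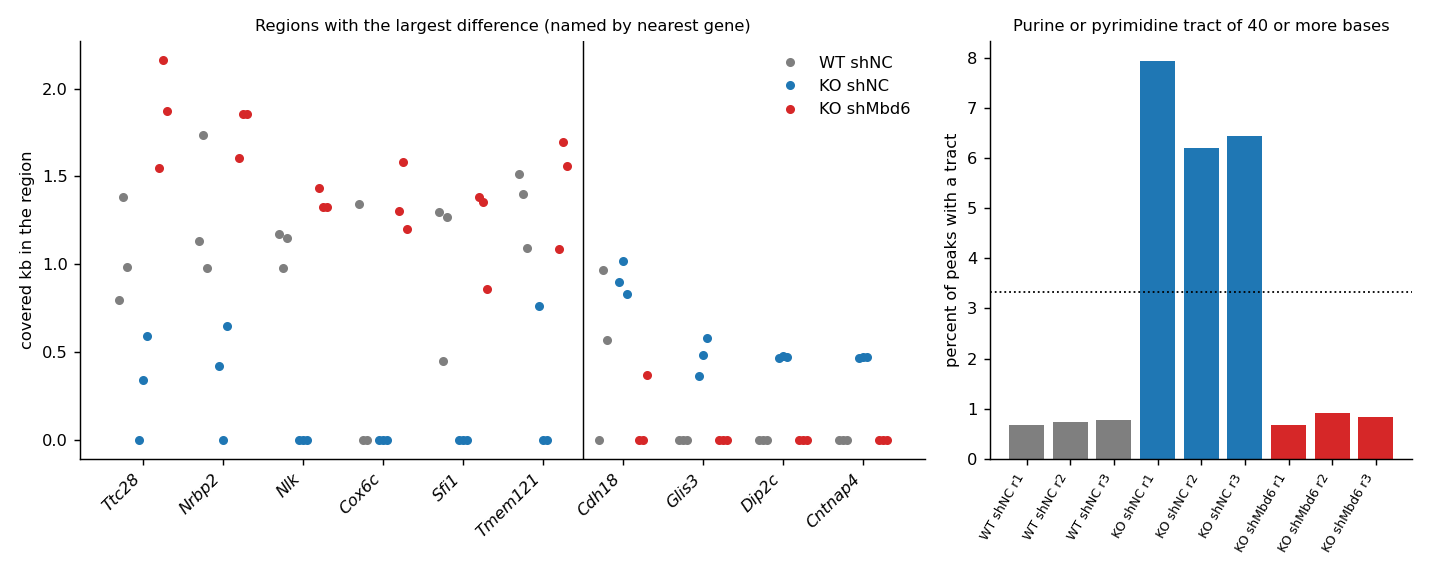
Left, covered kb in each library (points) at the 6 regions with the largest rise and 4 of the 6 with the largest fall, named by the gene with the nearest TSS. Right, percent of the peaks of each library with a run of at least 40 purines or pyrimidines, with the share of 400-base genome tiles as a dotted line at 3.33%. The last 2 regions named on the axis have peaks of about equal width in KO shNC and none in KO shMbd6 or WT.

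Where a peak was present in all 6 KO libraries, promoters widened and the other regions hardly did. Of 527 such regions, 128 were promoters outside tandem repeats. Their median covered length was 0.397, 0.414 and 0.434 kb in KO shNC and 0.666, 0.698 and 0.669 kb in KO shMbd6, with no overlap. WT lay between, at 0.592 to 0.611 kb. At 223 tandem repeats the medians were 0.590 ± 0.00755 and 0.646 ± 0.0361 kb (exact permutation p = 0.1, the smallest possible), and at 176 other regions 0.481 ± 0.00889 and 0.497 ± 0.0150 kb, with overlap (p = 0.3, exact permutation). The fold enrichment given with the peaks moved otherwise. Its median was 6.62 ± 0.0627 in KO shNC and 5.69 ± 0.0906 in KO shMbd6 at tandem repeats, with no overlap, and 5.46 ± 0.0199 and 5.39 ± 0.0567 at promoters, with overlap (exact permutation p = 0.2).

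The loci of retroelements amplified in the study's qPCR were rarely near a peak. Of 1686 loci of IAP, MERVL and MusD, which are endogenous retroviral families, 2, 5 and 2 had a peak within 5 kb in KO shNC, 13, 17 and 17 in KO shMbd6 and 9, 14 and 6 in WT. The groups KO shNC and KO shMbd6 did not overlap (exact permutation p = 0.1), but with the 1398 strongest peaks of each library they did, at means of 3.00 ± 1.73 and 4.33 ± 1.53 loci (exact permutation p = 0.5). Copies of a family are near-identical, so a locus with no peak may be one to which reads could not be assigned.

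Among chromosomes 1 to 19, X and Y, the shares of the KO groups differed most at 11 and X. There KO shMbd6 was closer to WT than KO shNC was. KO shMbd6 was also the closer group at most other chromosomes, but not at 13 and 15. The KO groups did not overlap at chromosomes 4, 6, 9, 10, 14, 19 and Y either. Chromosome 11 held 5.72 ± 1.04% of the peaks in KO shNC and 8.05 ± 0.148% in KO shMbd6, against 8.09% in WT. Chromosome X held 2.29 ± 0.313% in KO shNC and 1.16 ± 0.0892% in KO shMbd6, against 1.16% in WT. Both contrasts had no overlap (exact permutation p = 0.1, the smallest possible, not adjusted over chromosomes).

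Pairs of libraries were also compared by the bases that both covered. The bases covered in both of a pair of libraries were a fraction of 0.369 to 0.389 of those covered in either among KO shNC libraries, 0.407 to 0.415 among KO shMbd6 libraries, and 0.110 to 0.128 between the groups. KO shMbd6 and WT libraries shared 0.313 to 0.347, and KO shNC and WT libraries 0.180 to 0.220. Lists of unequal length limit this fraction. As a share of the KO shNC bases, 64.8 to 74.0% lay in the peaks of a KO shMbd6 library, more than the 52.6 to 56.8% that lay in another KO shNC library. As a share of the KO shMbd6 bases, 11.5 to 13.6% lay in a KO shNC library and 54.3 to 62.5% in another KO shMbd6 library.

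The same knockdown was made in Tet2 KO mouse embryonic stem cells (mESCs) and TET2 KO K-562 cells, an erythroleukaemia line, with siRNA in place of shRNA. The log2 ratio of covered length with to without knockdown was 2.49 in HSPCs, 0.247 in mESCs and 0.468 in K-562 cells. Covered length was 4.07 ± 1.65 and 3.47 ± 1.43 Mb in mESCs and 1.23 ± 0.221 and 0.884 ± 0.0701 Mb in K-562 cells. The effect in HSPCs exceeded that in mESCs by 2.24 and that in K-562 cells by 2.02 on the log2 scale. Neither difference passed an exact permutation test with labels permuted within each cell type (adjusted p = 0.1 for each, over 2 pairs). With the HSPC groups already fully apart, a larger effect in HSPCs would not have lowered either p. The test therefore cannot decide whether the effects differ. Cells, RNA and delivery differ together, so their parts cannot be told apart.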

How the data were processed

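Broad peak lists of H2AK119ub CUT&Tag were analysed from 9 HSPC libraries, with mESC and K-562 libraries for 1 comparison. The authors trimmed reads with Trimmomatic 0.39, aligned them with Bowtie2 2.4.1 to mm10 (hg38 for K-562 cells), removed duplicates with Picard and called peaks per library with MACS2 in broad mode. The deposited columns used were each peak's position, its fold enrichment (a ratio to the local background) and its −log10 q, with the peak score not used. The lists hold no counts, so depth and its precision are unknown, and by the study's methods Bowtie2 reported 1 best match for a read with several. Peaks on Drosophila sequence were counted apart as the spike-in.

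Coverage in kb was computed with NumPy 2.4.6 over 10 kb windows at 21911 GENCODE protein-coding TSSs and over 14140 merged regions. Features covered in at least 3 of 9 libraries were fitted with limma 3.58.1, all 3 HSPC groups sharing 1 spread, with Benjamini-Hochberg adjustment over all features. Single values per library were compared by exact two-sided permutation tests. The step was tested on simulated data, where 68.5% of 200 windows changed by 0.5 kb and 98.5% of those changed by 1 kb were recovered among 4242 windows. There were 10 and 17 false calls. The simulation changed far fewer windows than the 3055 called higher in the data, so it does not test the step in that setting. CpG-rich promoters had an observed to expected CpG ratio of at least 0.6 and at least 55% GC over 1 kb around the TSS, and CpG-poor ones a ratio under 0.4. Repeat masking, promoter sequences and genome sequence were those of RefSeq GRCm38.p6. Retroelement loci were genome matches of the qPCR primer pairs with a product of at most 1000 bases.

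Named windows were up to 10 called in each direction with the largest difference, where groups did not overlap, with starts spaced by at least 20 kb and predicted genes skipped, up to 3 called members of each of 32 gene lists with the smallest adjusted p, and 20 fixed genes. Named regions were up to 6 in each direction. The members and lists were chosen with earlier results of these data known. Alternatives were stronger peaks only, equal numbers of peaks, equal covered length, 2 kb windows, no filter, the 6 libraries alone, log2(kb + 0.1), a replicate block, each library left out and, added after the data were seen, no tandem-repeat peaks. Python 3.11.15 and R 4.3.3 were used. A few items chosen by these rules are not reported here.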

Additional observations from a re-analysis of the deposited data

Results flagged for a closer look

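No comparison used the peaks on the mitochondrial genome and on unplaced scaffolds. KO shMbd6 libraries held a mean of 21 of them (20 to 23) and the KO shNC controls 15.7 (15 to 16), so the groups did not overlap (exact permutation test, two-sided, p = 0.1, which is the lowest this design can give).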

How the results depend on the processing

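The comparisons of covered length, number and width of peaks, genome shares, CpG density, retroelement loci and spike-in kept their direction under every alternative run, though 3 against 3 libraries cannot give an exact p under 0.1. Counts of called features moved more. With peaks at a −log10 q of at least 5, 1009 windows were higher and 2 lower, and 993 regions were higher. Equal numbers of peaks gave 304 windows higher and 21 lower. Equal covered length gave 1183 and 204 windows, and 1453 and 640 regions. Features at 0 in every KO shNC library stay at 0 under this scaling and cannot turn lower. Windows of 2 kb to each side gave 1 lower window, and leaving out tandem-repeat peaks 1 lower window and 31 lower regions. Requiring a peak in all 3 libraries left 3779 regions of KO shMbd6 alone. Stronger peaks only, equal numbers of peaks, narrower windows and no tandem repeats test fewer features. Equal covered length tested the same 4242 windows and 6011 regions, and there the cause was not tested. Leaving out 1 library gave 2592 to 2811 windows higher, 2 to 3 lower, 2766 to 3234 regions higher and 24 to 84 lower. The fewest higher windows and regions came without KO shMbd6 replicate 2, and the fewest lower ones without KO shNC replicate 3.

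With equal covered length the difference turned negative, in kb, for Ifnz (−0.773), Fcgr3 (−2.01), Zfpm1 (−0.649), E2f3 (−0.0436), Atm (−0.323), Eif5a (−0.0574), Myd88 (−0.0228), Ripk2 (−0.735), Relb (−1.18), Stat3 (−0.0279), Gsk3b (−0.0226), Rbbp4 (−0.0218), Irx5 (−0.116), Stag3 (−0.706) and the regions near Nrbp2 (−0.145) and Tmem121 (−0.0134). Among these Fcgr3, Ripk2, Relb and Stag3 were called lower. With equal numbers of peaks Ifnz was at −0.351 kb. Of the remaining values for single genes and regions, 1268 kept direction and side of the threshold, 80 lost the call and 2 gained one.

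Whether replicate numbers pair the libraries is not settled. Same-numbered libraries deviated with correlations of −0.0129, −0.0120 and −0.0132 over 4242 windows, all below the −0.00309 to 0.0157 of the 6 other pairings. Yet 2347 of the windows called higher were at 0 in every KO shNC library and have no deviation there. Covered length was ordered alike in WT, KO shNC and KO shMbd6, lowest in replicate 1 and highest in replicate 2. With the replicate block, 3088 windows were higher and 3 lower, and 3520 regions higher and 79 lower.

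Depth is unknown, so a lower number of peaks cannot be told apart from a thinner library. A value of 0 is the absence of a called peak. Coverage is a width of called peaks, not an amount of the mark. The loss of Mbd6 was not measured in these files, and 1 shRNA construct was used.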
